A study of Mus musculus with 12 samples.

Results

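The 53 genes described here encode enzymes that break down amino acids and handle 1-carbon units in mouse liver. They were named in a list by symbol, and all 53 were found, each in 1 row, among the 11289 genes of the deposited table. The genes were followed in liver RNA of 12 C57BL/6J mice, 4 in each of 3 groups, and the labels give the age as 8 to 10 weeks, while the study's text gives a younger range. The control group carries only that name in the labels, with no injection stated. The Con A + PBS group received concanavalin A (Con A), a lectin from plants used to provoke T cell driven liver injury, at 15 mg/kg through the tail vein and PBS intravenously 30 min later. The Con A + hWJ-MSCs group received the same dose of Con A and, in place of PBS alone, mesenchymal stromal cells from the Wharton's jelly of the human umbilical cord. Livers were collected 24 h later. The Con A + PBS mice are compared with control mice to ask what the injury did, and the Con A + hWJ-MSCs mice with Con A + PBS mice to ask what the infused cells changed. The infused cells are human, and the labels and the study's text differ in how many were given.

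The liver is the main site where surplus amino acids are degraded. Tyrosine is split into fumarate and acetoacetate, histidine gives a 1-carbon unit to folate, and methionine is turned into S-adenosylmethionine, then homocysteine and finally cysteine and taurine. Glycine is made and used in mitochondria, peroxisomes and the cytosol, where its breakdown and the stepwise demethylation of betaine by way of dimethylglycine and sarcosine feed 1-carbon units to folate. The branched-chain amino acids leucine, isoleucine and valine are oxidised in mitochondria, and isoleucine and valine end in propionate, which enters the citric acid cycle after carboxylation. Many of these genes are known as genes of mature hepatocytes, the main liver cell.

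Each value is a whole-number score per gene and mouse that the authors had normalized between mice, so that the totals of the 12 mice lay between 17649654 and 17657159 and depth cannot be read from them. Scores are used here to compare mice for the same gene, never to rank genes. Coordinates of genes are those of the table, on mm10. The 53 genes reached scores from 56 up to the shared largest score of 341028, which Bhmt and Mat1a reached in some mice. Every gene of the table reached 64 in at least 2 mice, and all 53 genes scored at least 146 in every control mouse. High scores come in coarse steps, with 1.2 log2 units between 148316 and 341028, and Glud1, Mat1a and Cdo1 took only 5 distinct scores over the 12 mice. Log2 changes are differences of mean log2(score + 1) with their SE from limma, in 1 fit of all 12 mice over all genes, and "adjusted p" is limma's p after Benjamini-Hochberg adjustment over the 11289 genes. A gene is said to rise or fall where the adjusted p was below 0.05 and the change exceeded 1.5-fold. Whether the mice of a group shared a cage, litter or day is not stated, so p-values measure the spread between these mice.

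Con A lowered most of these genes. In the Con A + PBS group 43 of the 53 genes fell, 3 rose (Sdsl, Cdo1 and Mat1a), and 7 did not pass the test (Tat, Ftcd, Got1, Got2, Glud1, Bhmt2 and Aass). Of all genes in the table, 19.2% fell and 19.5% rose. The median log2 change of the 53 genes was -1.44, with a range from -3.88 to 2.47, against 0.05 over all genes. For 42 of the genes every Con A + PBS mouse lay below every control mouse, which held for 23.4% of all genes, and for 2 (Sdsl and Cdo1) every Con A + PBS mouse lay above, which held for 27.1%. Of the 46 changes, 44 were called in all 12 fits that each left out 1 mouse. The exceptions were Gldc and Mut, each missed in 1 fit.

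With hWJ-MSCs, the scores of many of these genes lay between those of the other groups. Against the Con A + PBS group, 18 genes were higher (Aadat, Agxt, Agxt2, Auh, Bckdha, Bhmt, Bhmt2, Dmgdh, Fah, Gcdh, Gcsh, Hibch, Ivd, Mccc1, Pcca, Prodh, Prodh2 and Sardh), 1 was lower (Mat1a) and 34 did not pass the test, while 4.2% of all genes were higher and 4.38% lower. The median log2 change was 0.68, against 0.00 over all genes, and 47 of the 53 estimates were positive. For 20 genes every Con A + hWJ-MSCs mouse lay above every Con A + PBS mouse, against 11.9% of all genes. These calls depended on single mice, and none of the 19 was made in all 12 fits that left out 1 mouse. No gene was higher by limma without Con A + PBS mouse 1, without Con A + hWJ-MSCs mouse 2 or without Con A + hWJ-MSCs mouse 3, where 32, 21 and 32 genes had an unadjusted p below 0.05 with the same fold. The loss covered the whole table, as 5, 8 and 4 of all genes were higher in these fits, against 474 with all mice. The number of the 53 genes higher was 31, 10 and 5 without Con A + PBS mouse 2, 3 and 4. Of all genes, 846, 252 and 136 were higher in those fits. Without Con A + hWJ-MSCs mouse 1 and 4 the number was 8 and 27, against 199 and 630 of all genes. The median log2 change of the 53 genes stayed between 0.51 and 0.79 over the 12 fits.

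The Con A + hWJ-MSCs group remained below the control group for most genes. Compared with control mice, 31 of the 53 genes were lower, 2 were higher (Sdsl and Cdo1) and 20 did not pass the test, against 13.1% lower and 13.6% higher over all genes. The median log2 change was -0.81, against 0.04 over all genes. For 33 of the genes every Con A + hWJ-MSCs mouse lay below every control mouse, against 17.3% of all genes. The 3 comparisons share mice, so their values are given side by side and are not independent of each other. On a scale where the control mean of each gene is 0, the median over the 53 genes lay between -0.11 and 0.18 log2 units in control mice, between -1.96 and -1.17 in Con A + PBS mice and between -1.09 and -0.53 in Con A + hWJ-MSCs mice, and these ranges do not overlap.

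**Figure D1:**
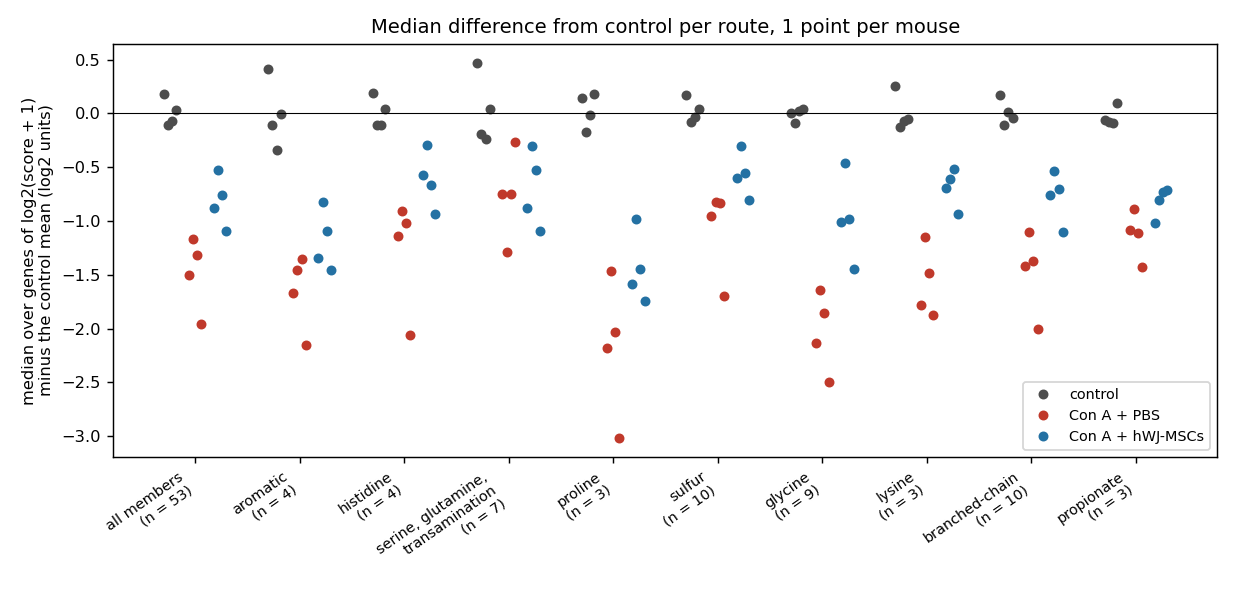
Median over the genes of each route of log2(score + 1) minus the control mean of the same gene, in log2 units, with 1 point for each of the 12 mice and the number of genes under each route. Over all 53 genes the 4 Con A + PBS mice lie between -1.96 and -1.17, below the 4 mice given cells, which span -1.09 to -0.53.

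Mice within a group differed in a shared direction over many of the genes. Con A + PBS mouse 4 had the lowest score of its group for 37 of the 53 genes and Con A + PBS mouse 2 the highest for 34. In the Con A + hWJ-MSCs group mouse 2 was the highest for 40 genes and mouse 4 the lowest for 39, and control mouse 1 was the highest of its group for 29.

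Other cell types also changed in these livers. Of 10 hepatocyte markers 9 were in the table, and albumin stood at the largest score in all 12 mice. The summed score of the 9 was 1082504 to 1478840 in control mice, 1003066 to 1027521 in Con A + PBS mice and 1040870 to 1078676 in Con A + hWJ-MSCs mice, with 4 markers lower after Con A (Ttr, Apoa1, Apoa2 and Cebpa), 1 higher (Fgb) and a median log2 change of -0.30. Fgb also stood at the largest score in all mice given Con A, and Ahsg at 147767. Control mouse 1 reached the largest score for Ttr and Apoa2, and control mouse 3 for Ahsg and Fgb. Much of the sum was thus set by that limit, so it says little about hepatocyte change. All 5 neutrophil markers rose after Con A, and their sums went from 58 to 139 in control mice to 828 to 1799 in Con A + PBS mice and 795 to 1656 in Con A + hWJ-MSCs mice, with Mmp8 at 0 in 2 control mice and Retnlg at 0 in 1. Of 7 T cell markers 2 were in the table, Cd8a and Lck, and both rose, with sums of 15 to 37, 114 to 236 and 136 to 162 and Cd8a at 0 in 1 control mouse. Of 7 Kupffer cell and macrophage markers found, 6 fell and 1 (Cd68) rose, with sums of 3614 to 5788, 1275 to 1717 and 583 to 1727. Their log2 changes after Con A ran from -4.9 (Clec4f) to 2.89 (Cd68), with a median of -3.08. Cd68 alone scored 746 to 1018 in Con A + PBS mice, so the sums understate the falls of the other 6. S100a8, S100a9, Retnlg, Mmp8, Cd8a and Lck were below 64 in all control mice, so that with 64 reached by each gene of the table in at least 2 mice they could be listed only through the mice given Con A, and their rise is no independent result. The same holds for Csf3r, which exceeded 64 among control mice only in mouse 2 (77). In the other direction, Timd4 and the endothelial marker Clec4g were below 64 in all mice given Con A. Vsig4 exceeded 64 among those mice only in Con A + hWJ-MSCs mouse 2 (65). Timd4, Clec4g and Vsig4 could thus be listed only through control mice, and their falls are no independent result either. Of 6 markers of sinusoidal endothelium 4 fell and 1 rose, with sums of 2269 to 3263, 955 to 1443 and 1339 to 1668. Among 6 stellate cell markers 2 fell, with sums of 4647 to 7486, 6021 to 6979 and 4396 to 9298, and 1 of the 3 cholangiocyte markers in the table rose, with sums of 2254 to 4431, 2340 to 13241 and 2208 to 6466. The part of these changes in the results was not tested. In whole liver RNA, fewer hepatocytes and less RNA per hepatocyte cannot be told apart.

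**Figure D2:**
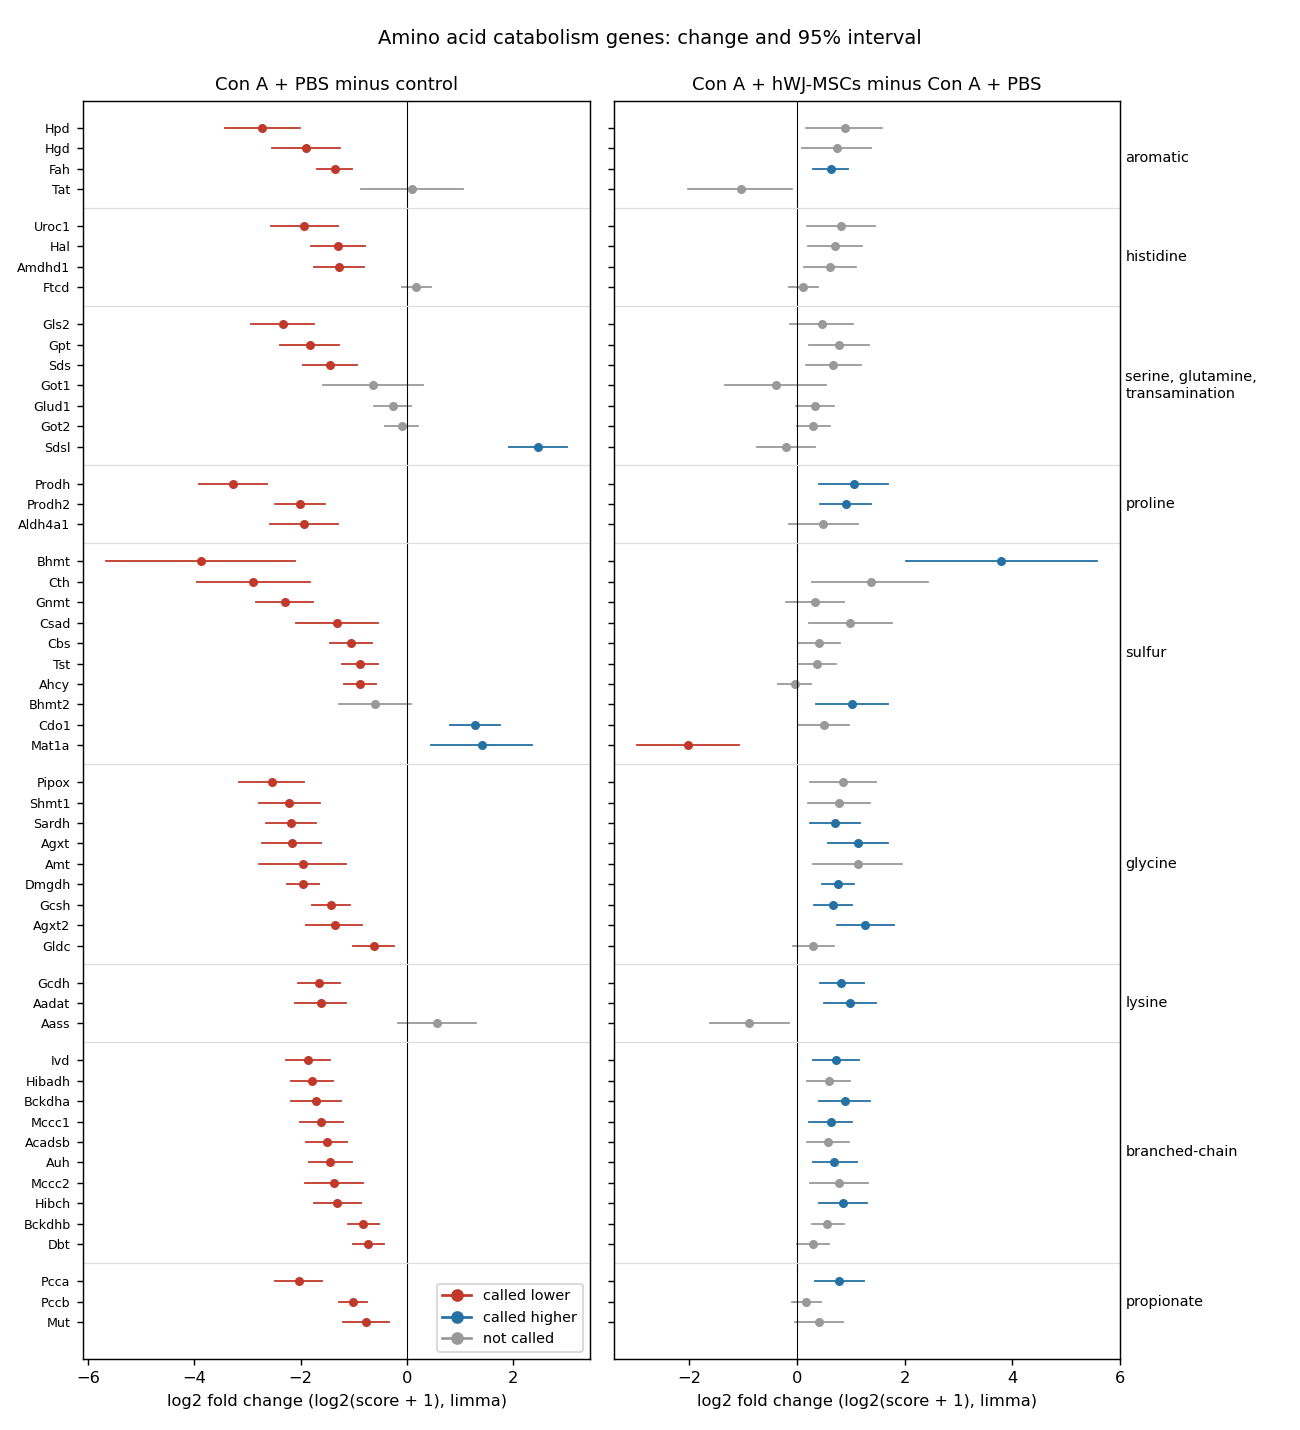
Log2 change of each of the 53 genes on the log2(score + 1) scale with its 95% interval from limma, grouped by route, for Con A + PBS minus control (left) and Con A + hWJ-MSCs minus Con A + PBS (right). Points are red where the gene fell, blue where it rose and grey where it did not pass the test, with 43 red and 3 blue on the left and 1 red and 18 blue on the right.

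The start regions of the genes, whether or not they passed a test, were searched for letters known from liver promoters. For 41 of the 53 genes RefSeq (GRCm38.p6) gave a start within 1000 bases of the start in the deposited table, and the 250 bases before it were read on both strands, as were those of 7818 genes of the table. The core letters of HNF4A sites (CAAAGTC) were found in 3 of the 41 windows, 7.32%, against 3.66% of all windows, and they were in Aadat, Agxt2 and Pipox. The letters TTGCNNAA of C/EBP sites were in 6 windows, 14.6% against 7.9%, those of Aass, Acadsb, Gcdh, Hal, Hgd and Prodh2. The letters GTTAAT of HNF1 sites were in 3, 7.32% against 4.04%, and the TATA letters TATAAA in 5, 12.2% against 6.68%. The letters CCAAT were in 22, 53.7% against 36.8%, and the letters TGACG of the cAMP element in 5, 12.2% against 28.1%. Strand and distance from the start were not considered. No test was made of these shares, and a match is no evidence of binding.

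Hgd and Hal hold C/EBP, TATA and CCAAT letters, and Agxt2 holds the HNF4A core and TATA letters. The windows of these 3 genes are shown, together with the short stretch between the divergent genes Bhmt2 and Dmgdh. They are written 5′ to 3′ on the plus strand of GRCm38.p6, with the letters found in capitals, and lie at chr16:37579903-37580152, chr10:93488518-93488767, chr15:10358283-10358532 and chr13:93674303-93674432. The last holds none of the letters searched. In the windows of the 3 genes the TATA letters read TATAAA on the minus strand, opposite to the strand of the gene.
Hgd: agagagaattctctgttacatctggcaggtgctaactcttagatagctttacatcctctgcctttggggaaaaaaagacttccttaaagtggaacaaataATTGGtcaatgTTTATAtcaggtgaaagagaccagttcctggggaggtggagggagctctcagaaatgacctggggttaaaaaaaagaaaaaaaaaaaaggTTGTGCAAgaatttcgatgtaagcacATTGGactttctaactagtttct
Hal: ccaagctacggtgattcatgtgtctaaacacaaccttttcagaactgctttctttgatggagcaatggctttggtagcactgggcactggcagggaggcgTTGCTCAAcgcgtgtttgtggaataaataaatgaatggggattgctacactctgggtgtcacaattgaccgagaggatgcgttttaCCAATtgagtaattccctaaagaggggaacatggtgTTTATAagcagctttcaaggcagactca
Agxt2: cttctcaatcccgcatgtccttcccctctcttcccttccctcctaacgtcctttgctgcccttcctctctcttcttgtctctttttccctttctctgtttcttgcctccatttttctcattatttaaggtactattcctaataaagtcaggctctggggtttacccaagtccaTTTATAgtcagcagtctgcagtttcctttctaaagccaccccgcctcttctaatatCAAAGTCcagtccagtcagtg
Between Bhmt2 and Dmgdh: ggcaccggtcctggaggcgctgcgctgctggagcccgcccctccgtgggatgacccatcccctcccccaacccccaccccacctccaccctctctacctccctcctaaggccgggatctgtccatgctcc

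The genes of tyrosine breakdown fell after the entry step of the route. Of the 4 aromatic genes 3 fell after Con A (75.0%, against 19.2% of all genes), with a route median of -1.63. Tat, the aminotransferase that opens the route, did not pass the test. Hpd, the dioxygenase that makes homogentisate (chr5:123171807-123182725), scored 58210, 29712, 23652 and 29712 in control mice 1 to 4, 4202, 7356, 7356 and 2870 in Con A + PBS mice and 9428, 11618, 9428 and 7356 in Con A + hWJ-MSCs mice. All Con A + PBS mice lay below all control mice, and the lowest mouse given cells equalled the highest Con A + PBS mice. Hpd fell 6.57-fold after Con A (log2 change -2.72 ± 0.33 SE, adjusted p = 3e-05), and the log2 change with cells was 0.89 ± 0.33 (adjusted p = 0.0808). Hgd, which opens the ring of homogentisate (chr16:37580153-37632020), scored 8960, 6796, 6182 and 6578 in control mice, 1903, 2485, 2596 and 1064 in Con A + PBS mice and 3065, 4860, 3338 and 2034 in Con A + hWJ-MSCs mice. It fell 3.71-fold (log2 change -1.89 ± 0.29, adjusted p = 0.00019), and the groups with and without cells overlapped (log2 change 0.74 ± 0.29, adjusted p = 0.0985).

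Fah, the last enzyme of tyrosine breakdown (chr7:84585159-84605827), was the only aromatic gene that rose with cells. Its scores were 16327, 13212, 15086 and 16327 in control mice, 5560, 6748, 6316 and 5134 in Con A + PBS mice and 9400, 10944, 9858 and 6938 in Con A + hWJ-MSCs mice, and no groups overlapped. It fell by 1.36 ± 0.15 on the log2 scale after Con A (adjusted p = 1.8e-05) and was 1.55-fold higher with cells (adjusted p = 0.0273), a call made in 7 of the 12 fits that left out 1 mouse. Tat scored 44970, 34530, 21000 and 34530 in control mice, 44970, 12268, 58393 and 44970 in Con A + PBS mice and 11676, 15198, 15198 and 29795 in Con A + hWJ-MSCs mice. Its 95% interval was -0.87 to 1.06 after Con A and -2.01 to -0.08 with cells (adjusted p = 0.119), and Con A + PBS mouse 2 lay apart from the other mice of its group. Against control mice, Hpd, Hgd and Fah were still lower with cells, by log2 changes of -1.83, -1.15 and -0.73.

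The genes of the first steps of histidine breakdown fell, while the gene of the folate enzyme at its end did not. Uroc1, urocanate hydratase, scored 7140, 7140, 6046 and 7140 in control mice, 1950, 2734, 2107 and 932 in Con A + PBS mice and 3201, 4938, 2556 and 2556 in Con A + hWJ-MSCs mice. It fell 3.81-fold after Con A (log2 change -1.93 ± 0.29, adjusted p = 0.00015). Hal, histidine ammonia-lyase, scored 8492, 6715, 7311 and 7571 in control mice, 3476, 4019, 3624 and 1729 in Con A + PBS mice and 4906, 6494, 4906 and 4019 in Con A + hWJ-MSCs mice, a fall of 2.45-fold after Con A (log2 change -1.29 ± 0.24, adjusted p = 0.00059). For both genes the Con A + PBS mice lay below the control mice and met or overlapped the mice given cells. Amdhd1, imidazolonepropionase, which lies tail to tail with Hal on chromosome 10 with 4033 bases between them, fell by 1.27 ± 0.22. Ftcd, which hands the last carbon to folate, scored 4386 to 5576 in control mice, 5047 to 5925 in Con A + PBS mice and 5144 to 6764 in Con A + hWJ-MSCs mice, with a 95% interval of -0.09 to 0.45 after Con A. None of the 4 histidine genes passed the test with cells in limma, with log2 changes from 0.12 to 0.83, and 3 of them had an unadjusted p below 0.05 with a change over 1.5-fold.

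The sulfur genes moved in both directions, with 7 of 10 genes lower after Con A, 2 higher and a median log2 change of -0.97. Of all genes, 19.2% fell and 19.5% rose, so 2 of 10 higher is near the share of all genes. The genes that make and use S-adenosylmethionine did not move together. Bhmt, which remethylates homocysteine with betaine (chr13:93616891-93637961), scored 341028, 72892, 341028 and 341028 in control mice, 13327, 44970, 29795 and 3467 in Con A + PBS mice and 341028, 341028, 341028 and 58393 in Con A + hWJ-MSCs mice. Every Con A + PBS mouse lay below every other mouse, while 3 mice in each of the other groups stood at the largest score, where differences can no longer be seen. The log2 change was -3.88 ± 0.82 after Con A (adjusted p = 0.00165) and 3.80 ± 0.82 with cells (adjusted p = 0.0243, called in 9 of 12 fits without 1 mouse), and against control mice it was -0.08 with an interval of -1.86 to 1.70. Mat1a, the liver enzyme that makes S-adenosylmethionine (chr14:41105381-41124412), scored 148316, 148316, 72892 and 72892 in control mice, 341028, 148316, 341028 and 341028 in Con A + PBS mice and 72892, 58393, 34530 and 148316 in Con A + hWJ-MSCs mice. It rose 2.66-fold after Con A (log2 change 1.41 ± 0.44, adjusted p = 0.0156) and was 4.05-fold lower with cells than in the Con A + PBS group (log2 change -2.02 ± 0.44, adjusted p = 0.0245), although the score of Con A + PBS mouse 2 occurred in all 3 groups. As 3 of the 4 Con A + PBS mice stood at the largest score, the size of these Mat1a changes depends on that limit. The fall of Mat1a was called in 8 of the 12 fits without 1 mouse.

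Bhmt2, the close neighbour and paralog of Bhmt on chromosome 13, had scores of 3681, 3109, 3520 and 3386 in control mice, 2407, 3386, 3216 and 992 in Con A + PBS mice and 4720, 5526, 4633 and 3624 in Con A + hWJ-MSCs mice. It did not pass the test after Con A (95% interval -1.27 to 0.07), and every mouse given cells lay above every Con A + PBS mouse (log2 change 1.02 ± 0.31, adjusted p = 0.0484, called in 2 of 12 fits without 1 mouse). As the Bhmt genes are alike in sequence, how reads were split between them is uncertain. Gnmt, which uses glycine to consume S-adenosylmethionine, scored 23572, 18904, 13195 and 23572 in control mice, 3442, 3692, 3310 and 5552 in Con A + PBS mice and 4100, 7600, 4454 and 4276 in Con A + hWJ-MSCs mice. It fell 4.93-fold (log2 change -2.30 ± 0.25, adjusted p = 1.2e-05), and the interval with cells was -0.20 to 0.87. Ahcy, which splits S-adenosylhomocysteine, fell by 0.88 ± 0.14 and differed by -0.03 ± 0.14 between the Con A groups.

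On the way from homocysteine to taurine the genes of the steps moved in opposite directions. Cth, the lyase that releases cysteine (chr3:157894248-157925077), scored 10356, 4658, 4380 and 3804 in control mice, 698, 1308, 1048 and 276 in Con A + PBS mice and 1872, 3592, 1808 and 964 in Con A + hWJ-MSCs mice, and fell 7.42-fold after Con A (log2 change -2.89 ± 0.49, adjusted p = 0.00038). The change with cells was 1.37 ± 0.49 (adjusted p = 0.0765), and Con A + hWJ-MSCs mouse 4 lay within the Con A + PBS range. Cdo1, the dioxygenase that commits cysteine to taurine, scored 25819, 25819, 23620 and 25819 in control mice, 58152, 72750, 58152 and 58152 in Con A + PBS mice and 72750, 72750, 147850 and 72750 in Con A + hWJ-MSCs mice. All Con A mice lay above all control mice, with log2 changes of 1.28 ± 0.22 in the Con A + PBS group (adjusted p = 0.00036) and 1.78 ± 0.22 in the Con A + hWJ-MSCs group (adjusted p = 6.5e-05). Cbs, which joins homocysteine to serine, fell by 1.05 ± 0.18, Csad, which acts after Cdo1, by 1.32 ± 0.35, and the sulfurtransferase Tst by 0.89 ± 0.16. With cells these 3 genes had log2 changes of 0.41, 0.99 and 0.38 and did not pass the test.

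All 9 glycine genes fell after Con A without overlap between the groups, with a median log2 change of -1.96. Of all genes, 19.2% fell and 23.4% lay lower without overlap. The largest falls were in the sarcosine and serine steps. Pipox, the peroxisomal oxidase of sarcosine and pipecolate (chr11:77880615-77894096), scored 5246, 4190, 4653 and 4374 in control mice, 724, 1222, 909 and 481 in Con A + PBS mice and 1350, 2375, 1367 and 964 in Con A + hWJ-MSCs mice. It fell 5.82-fold (log2 change -2.54 ± 0.28, adjusted p = 1.7e-05), and the change with cells was 0.86 ± 0.28 (adjusted p = 0.06). Shmt1, which moves a carbon from serine to folate in the cytosol (chr11:60788104-60811265), scored 4633, 3520, 3624 and 3520 in control mice, 833, 1222, 978 and 444 in Con A + PBS mice and 1410, 1940, 1276 and 1123 in Con A + hWJ-MSCs mice. Its fall was 4.65-fold (log2 change -2.22 ± 0.26, adjusted p = 2.8e-05), and the change with cells was 0.79 ± 0.26 (adjusted p = 0.0628). In both genes a mouse given cells lay within the Con A + PBS range.

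Of the glycine genes 5 rose with cells (55.6%, against 4.2% of all genes). Dmgdh, dimethylglycine dehydrogenase (chr13:93674433-93752831), scored 7315, 7315, 7104 and 7576 in control mice, 1710, 2253, 1966 and 1710 in Con A + PBS mice and 2960, 4088, 3348 and 2680 in Con A + hWJ-MSCs mice. The 3 groups were apart from each other, with a fall of 3.86-fold after Con A (log2 change -1.95 ± 0.14, adjusted p = 6e-07) and a rise of 1.70-fold with cells (log2 change 0.77 ± 0.14, adjusted p = 0.0188). Sardh, the next enzyme, scored 10932, 11574, 10336 and 11574 in control mice, 2075, 3534, 2466 and 1958 in Con A + PBS mice and 3692, 5730, 4184 and 2859 in Con A + hWJ-MSCs mice. It fell by 2.18 ± 0.21 and rose with cells by 0.71 ± 0.21 (adjusted p = 0.0478), although Con A + PBS mouse 2 lay above Con A + hWJ-MSCs mouse 4, and this call was made in 3 of the 12 fits without 1 mouse.

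The glyoxylate aminotransferases differed in where they ended. Agxt, the peroxisomal enzyme that turns glyoxylate into glycine (chr1:93135240-93145421), scored 5242, 4826, 6310 and 4370 in control mice, 868, 1587, 1416 and 875 in Con A + PBS mice and 2548, 3740, 2606 and 1624 in Con A + hWJ-MSCs mice. Its log2 changes were -2.17 ± 0.26 after Con A (adjusted p = 2.6e-05), 1.14 ± 0.26 with cells (adjusted p = 0.0252) and -1.03 ± 0.26 between mice given cells and control mice (adjusted p = 0.00702). Agxt2, the mitochondrial enzyme (chr15:10358532-10374383), scored 4111, 2400, 2699 and 2530 in control mice, 982, 1686, 1230 and 758 in Con A + PBS mice and 2699, 3130, 3050 and 2042 in Con A + hWJ-MSCs mice. It fell by 1.36 ± 0.24 and rose with cells by 1.27 ± 0.24 (adjusted p = 0.0198), and its change between mice given cells and control mice was -0.09 with an interval of -0.61 to 0.44. Every Con A + PBS mouse lay below every other mouse for both genes.

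Within the glycine cleavage system the genes of the subunits fell by different amounts. Gcsh, the lipoyl carrier, scored 1568, 1442, 1720 and 1672 in control mice, 565, 722, 644 and 468 in Con A + PBS mice and 859, 1234, 970 and 765 in Con A + hWJ-MSCs mice, with no overlap between groups. It fell 2.69-fold (log2 change -1.43 ± 0.16, adjusted p = 1.8e-05) and rose 1.59-fold with cells (adjusted p = 0.027). Amt, the aminomethyltransferase, fell by 1.96 ± 0.38 and Gldc, the decarboxylase, by 0.62 ± 0.18 (adjusted p = 0.0103). With cells, Amt had a log2 change of 1.13 ± 0.38 and Gldc of 0.31 ± 0.18, and neither passed the test.

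All 10 branched-chain genes fell after Con A, each without overlap between the groups, against 19.2% of all genes that fell and 23.4% lower without overlap. Their log2 changes lay within a narrow range from -1.86 to -0.73, with a median of -1.47. Ivd, the dehydrogenase of the leucine branch (chr2:118861954-118882909), scored 3694, 2862, 3694 and 3488 in control mice, 925, 1185, 1076 and 664 in Con A + PBS mice and 1396, 2163, 1485 and 1334 in Con A + hWJ-MSCs mice. It fell 3.63-fold (log2 change -1.86 ± 0.19, adjusted p = 9.9e-06) and rose 1.66-fold with cells (adjusted p = 0.034). Hibadh, a dehydrogenase of the valine branch (chr6:52546228-52640389), scored 10968, 7963, 6950 and 7138 in control mice, 2400, 2699, 2616 and 1782 in Con A + PBS mice and 3808, 4200, 3406 and 2828 in Con A + hWJ-MSCs mice. It fell 3.46-fold (log2 change -1.79 ± 0.18, adjusted p = 8.6e-06), and its change with cells was 0.59 ± 0.18 (adjusted p = 0.0513). Neither gene had overlapping groups in either comparison. The branched-chain ketoacid dehydrogenase is the committed step of the route. Its E1 alpha gene Bckdha fell by 1.71 ± 0.22, its E1 beta gene Bckdhb by 0.82 ± 0.14 and its core gene Dbt by 0.73 ± 0.14.

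With cells 5 of the 10 branched-chain genes rose, and the route median was 0.67. Bckdha scored 3912, 3798, 3912 and 3856 in control mice, 1306, 1634, 1365 and 666 in Con A + PBS mice and 2179, 2494, 2284 and 1838 in Con A + hWJ-MSCs mice, a rise of 1.85-fold with cells (adjusted p = 0.0293). Hibch, a hydrolase of the valine branch, scored 1506, 960, 1209 and 1130 in control mice, 442, 618, 577 and 333 in Con A + PBS mice and 802, 1102, 890 and 722 in Con A + hWJ-MSCs mice, a rise of 1.81-fold (adjusted p = 0.027). In these genes all mice given cells lay above all Con A + PBS mice. Mccc1, a carboxylase subunit of the leucine branch, scored 1096, 915, 888 and 884 in control mice, 262, 377, 376 and 242 in Con A + PBS mice and 422, 640, 504 and 380 in Con A + hWJ-MSCs mice, a rise of 1.55-fold (adjusted p = 0.0453). Auh, the hydratase after it, scored 774, 537, 654 and 558 in control mice, 238, 311, 214 and 174 in Con A + PBS mice and 398, 432, 402 and 282 in Con A + hWJ-MSCs mice, a rise of 1.63-fold (adjusted p = 0.0358). The groups of Mccc1 were just apart, by 377 against 380, while those of Auh overlapped by 1 mouse on each side. The other 5 genes had log2 changes from 0.30 to 0.78 with cells, of which Bckdhb (0.57 ± 0.14, adjusted p = 0.0268) and Acadsb (0.58 ± 0.18, adjusted p = 0.0499) missed only the fold threshold. Against control mice 6 of the 10 remained lower (60.0%, against 13.1% of all genes).

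The propionate genes fell as well, most the gene of the alpha subunit of the carboxylase. Pcca scored 1580, 1254, 1168 and 1453 in control mice, 338, 450, 348 and 220 in Con A + PBS mice and 516, 774, 548 and 476 in Con A + hWJ-MSCs mice, and no groups overlapped. It fell 4.11-fold (log2 change -2.04 ± 0.21, adjusted p = 8.3e-06) and rose 1.73-fold with cells (adjusted p = 0.0338). Pccb, the beta subunit, scored 1940, 2714, 2152 and 2457 in control mice, 1086, 1240, 1060 and 1172 in Con A + PBS mice and 1129, 1275, 1380 and 1405 in Con A + hWJ-MSCs mice, falling 2.02-fold (adjusted p = 2.7e-05) with a change of 0.18 ± 0.12 with cells. Mut, the mutase that follows, fell by 0.77 ± 0.20, and its change with cells was 0.41 ± 0.20 (adjusted p = 0.167).

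**Figure D3:**
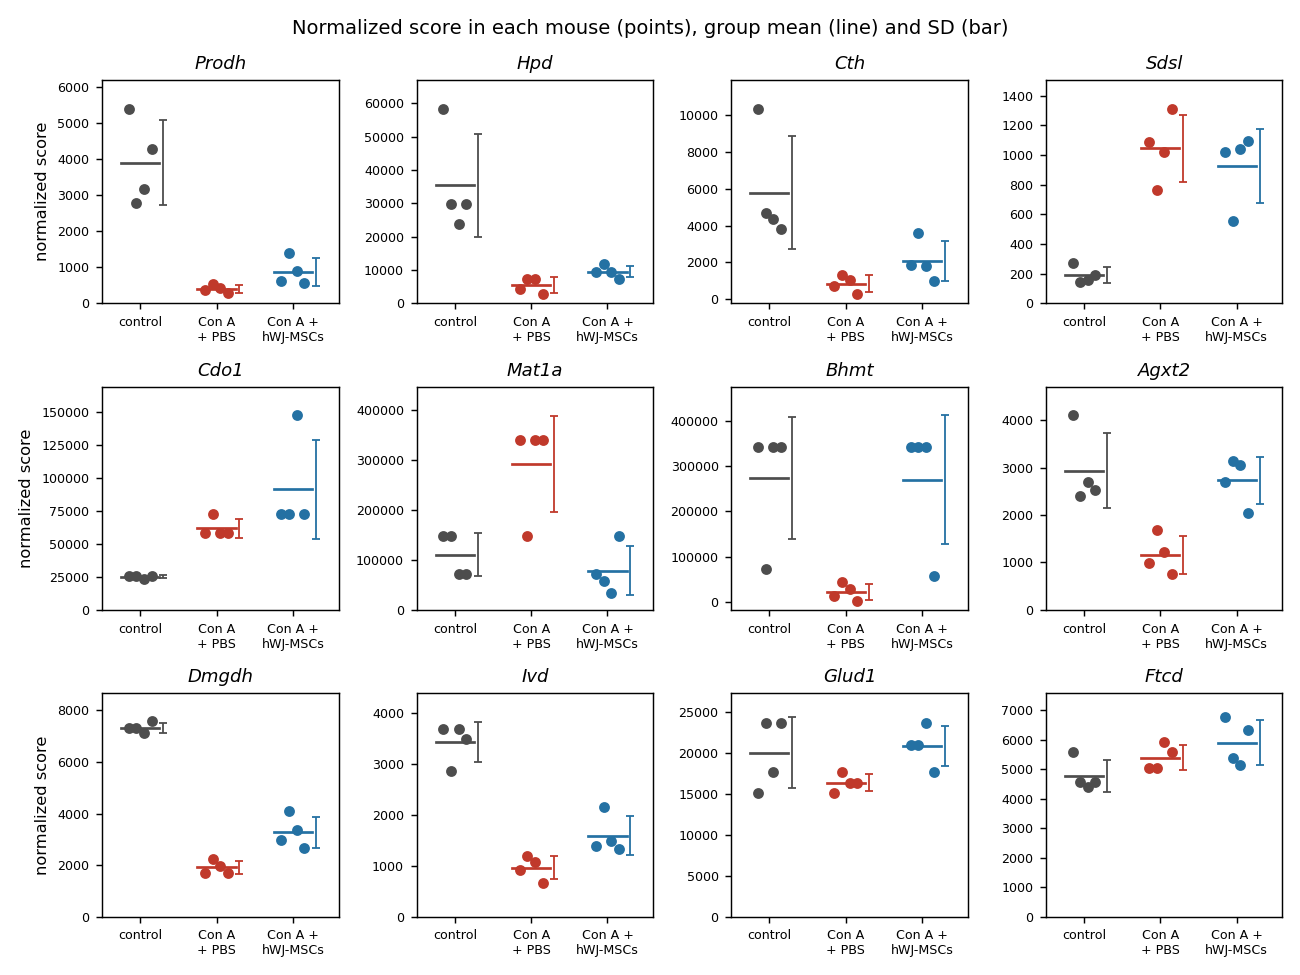
Normalized score of 12 of the genes in each of the 12 mice on linear axes, with the group mean as a line and the SD of 4 mice as a bar. Prodh, Hpd and Dmgdh lie lower in all Con A + PBS mice than in any control mouse, Sdsl and Cdo1 higher, and the scores of Bhmt in control mice and in mice given cells stand at the largest score in 3 of 4 mice.

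In lysine breakdown 2 of 3 genes fell after Con A (66.7%, against 19.2% of all genes). Gcdh, glutaryl-CoA dehydrogenase (chr8:84886393-84893917), scored 7126, 8527, 9400 and 7945 in control mice, 2396, 3694, 2900 and 1840 in Con A + PBS mice and 4374, 5387, 4739 and 4280 in Con A + hWJ-MSCs mice. Aadat, the aminoadipate aminotransferase (chr8:60506124-60545677), scored 1629, 965, 1150 and 1164 in control mice, 333, 501, 430 and 328 in Con A + PBS mice and 746, 1088, 838 and 538 in Con A + hWJ-MSCs mice. Their log2 changes were -1.65 ± 0.18 and -1.62 ± 0.22 after Con A and 0.83 ± 0.18 and 0.99 ± 0.22 with cells (adjusted p = 0.0251 and 0.0252), with no overlap between the Con A groups. Aass, which opens the route, scored 8246, 6328, 6044 and 7354 in control mice, 8542, 5923, 9424 and 23644 in Con A + PBS mice and 5574, 4385, 5046 and 7963 in Con A + hWJ-MSCs mice. Its groups overlapped in both comparisons, with log2 changes of 0.57 ± 0.34 and -0.88 ± 0.34, and Con A + PBS mouse 4 was far above the rest.

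All 3 genes of proline breakdown fell after Con A, against 19.2% of all genes, with a median log2 change of -2.02. Prodh, proline dehydrogenase (chr16:18060357-18089163), scored 5380, 2784, 3158 and 4276 in control mice, 378, 538, 412 and 272 in Con A + PBS mice and 620, 1395, 878 and 566 in Con A + hWJ-MSCs mice. The 3 groups were apart, with a fall of 9.68-fold after Con A (log2 change -3.28 ± 0.30, adjusted p = 3.6e-06) and a rise of 2.08-fold with cells (log2 change 1.06 ± 0.30, adjusted p = 0.0402, called in 5 of 12 fits without 1 mouse). Prodh2, which acts on hydroxyproline (chr7:30493622-30513402), scored 3751, 3012, 3596 and 3273 in control mice, 749, 1242, 828 and 641 in Con A + PBS mice and 1610, 2224, 1530 and 1120 in Con A + hWJ-MSCs mice. It fell 4.05-fold (log2 change -2.02 ± 0.22, adjusted p = 1.3e-05) and rose 1.88-fold with cells (adjusted p = 0.027), with 1 mouse of each Con A group in the overlap. Aldh4a1, the dehydrogenase both routes share, fell by 1.93 ± 0.30, and its change with cells was 0.49 ± 0.30 (adjusted p = 0.258).

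Among the 7 genes of serine, glutamine and transamination 3 fell after Con A (42.9%, against 19.2% of all genes). In the same group 1 rose (14.3%, against 19.5%) and 3 did not pass the test. Gls2, the liver glutaminase (chr10:128194457-128209939), scored 7608, 6938, 6036 and 6938 in control mice, 1656, 1578, 1716 and 742 in Con A + PBS mice and 1635, 3043, 1554 and 1548 in Con A + hWJ-MSCs mice. It fell 5.07-fold (log2 change -2.34 ± 0.27, adjusted p = 2.4e-05), and the Con A groups overlapped (log2 change 0.46 ± 0.27, adjusted p = 0.247). Gpt, alanine aminotransferase, fell by 1.83 ± 0.26 and Sds, serine dehydratase, by 1.45 ± 0.24. Sdsl, the related enzyme whose gene lies head to head with Sds on chromosome 5 with 3767 bases between them, scored 268, 146, 155 and 190 in control mice, 1090, 762, 1017 and 1312 in Con A + PBS mice and 1022, 554, 1040 and 1094 in Con A + hWJ-MSCs mice. All Con A mice lay above all control mice, a rise of 5.54-fold in the Con A + PBS group (log2 change 2.47 ± 0.25, adjusted p = 7.7e-06) and 4.84-fold in the Con A + hWJ-MSCs group. Glutamate dehydrogenase Glud1 scored 15102 to 23620 in control mice, 15102 to 17660 in Con A + PBS mice and 17660 to 23620 in Con A + hWJ-MSCs mice. The intervals after Con A were -0.62 to 0.08 for Glud1, -0.41 to 0.21 for the mitochondrial aspartate aminotransferase Got2 and -1.57 to 0.30 for the cytosolic Got1. None of the 7 genes passed the test with cells in limma, and 2 of them, Gpt and Sds, had an unadjusted p below 0.05 with a change over 1.5-fold.

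Set side by side, the median log2 change after Con A was -1.96 for glycine, -1.63 for aromatic, -1.47 for branched-chain and -0.97 for sulfur genes. With cells the medians were 0.79, 0.69, 0.67 and 0.46 in the same order, and against control mice they were -1.03, -1.05, -0.78 and -0.56. The routes hold 9, 4, 10 and 10 genes, and no test between routes was made. Per mouse, the route medians in the Con A + PBS group lay between -2.50 and -1.64 for glycine, -2.15 and -1.35 for aromatic, -2.0 and -1.1 for branched-chain and -1.70 and -0.82 for sulfur genes, so these ranges overlapped between the routes. By the compartment of the enzyme, 26 of 29 mitochondrial (89.7%), 15 of 22 cytosolic (68.2%) and both peroxisomal genes fell, against 19.2% of all genes. The 3 genes that rose are cytosolic (13.6% of 22, against 19.5% of all genes). With cells, 14 of 29 mitochondrial genes (48.3%) and 3 of 22 cytosolic genes (13.6%) were higher, against 4.2% of all genes. Their median log2 changes were near-equal, 0.67 and 0.66. None of these calls remained without Con A + PBS mouse 1 or without Con A + hWJ-MSCs mouse 2 or 3.

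Genes of isozymes and of subunits of the same enzyme responded unequally to Con A. The log2 ratio within 12 pairs was compared over mice by a two-sided exact permutation test, where 4 mice against 4 cannot give a p below 0.0286, and p-values were adjusted over the 12 pairs. In 9 pairs the ratios of the Con A + PBS and control groups did not overlap (exact p = 0.0286, adjusted p = 0.0381 for each). The log2 ratio of Sds to Sdsl was 4.55 ± 0.24 (SD, 4 mice) in control mice and 0.64 ± 0.33 in Con A + PBS mice, a difference of -3.92. That of Bhmt to Bhmt2 went from 6.08 ± 1.02 to 2.80 ± 0.84, and that of Gpt to Gpt2, a gene outside the list, from -0.78 ± 0.21 to -2.99 ± 1.06. Smaller differences were found for Shmt1 to Shmt2 (-1.41), Prodh to Prodh2 (-1.26), Pcca to Pccb (-1.03), Bckdha to Bckdhb (-0.89) and Agxt to Agxt2 (-0.81), and that of Gldc to Gcsh was 0.81. The ratios of Got1 to Got2, Mccc1 to Mccc2 and Mat1a to Mat2a did not pass (exact p = 0.371, 0.229 and 0.114), with differences of -0.53, -0.24 and 0.93. With cells, none of the 12 ratios passed after adjustment in the exact permutation test. The ratio of Bhmt to Bhmt2 alone had an unadjusted p below 0.05, with a difference of 2.78 (exact p = 0.0286, adjusted p = 0.137). At the smallest possible p of 0.0286, 1 pair cannot pass the adjustment over 12 pairs on its own. The lack of a pass therefore does not show that the ratios stayed the same with cells.

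**Figure D4:**
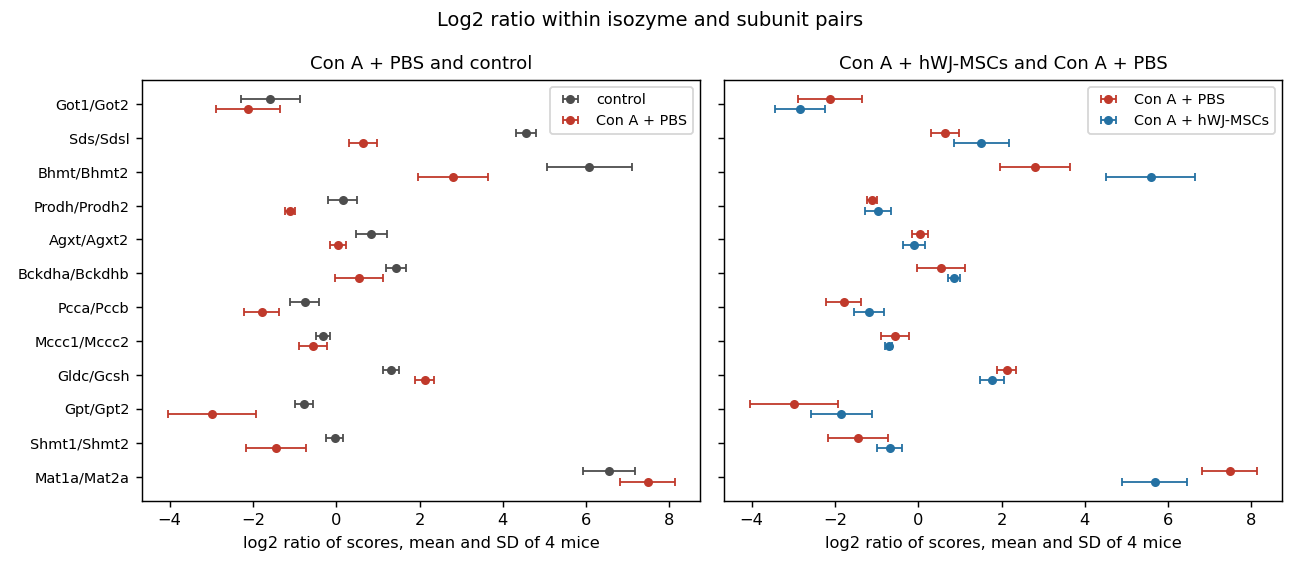
Log2 ratio of the scores within 12 isozyme and subunit pairs, as the mean and SD of 4 mice, for Con A + PBS against control mice (left) and for mice given cells against Con A + PBS mice (right). The ratio of Sds to Sdsl lies at 4.55 in control mice and 0.64 in Con A + PBS mice, while that of Mccc1 to Mccc2 differs by -0.24 between them.

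Of 82 further enzymes and transporters of the same routes 75 were in the table, and after Con A 36 fell (48.0%, against 19.2% of all genes) and 12 rose (16.0%, against 19.5%), with a median log2 change of -0.67. All 4 further aromatic genes fell, with the largest fall in Qdpr (log2 change -1.73), which regenerates tetrahydrobiopterin. Of 15 further branched-chain and propionate genes 10 fell, with the largest fall in the epimerase Mcee (-1.98). The largest falls in the other groups were those of Ethe1 (-2.03), a sulfur dioxygenase, of Aldh7a1 (-1.76) among the glycine and 1-carbon genes, of the lysine gene Dhtkd1 (-2.79) and of glutamine synthetase Glul (-2.52). Of the genes that rose, Psat1 and Phgdh, which make serine, rose from scores of 0 to 24 and 4 to 14 in control mice to 161 to 716 and 86 to 122 in Con A + PBS mice (log2 changes 5.23 and 3.40). The mitochondrial folate enzymes Mthfd2 and Mthfd1l each rose by 3.17, asparagine synthetase Asns by 2.69, Aldh18a1, the first enzyme of proline synthesis, by 1.24 and Grhpr by 0.77. Psat1, Phgdh, Mthfd2, Mthfd1l and Asns were below 64 in all control mice and could be listed only through the mice given Con A, so they had to be higher there. Aldh18a1 exceeded 64 among control mice only in mouse 4 (77), so it too was listed only through mice given Con A. With cells 10 of the 75 were higher (13.3%, against 4.2% of all genes: Asrgl1, Bcat2, Dhtkd1, Gclm, Gstz1, Hsd17b10, Mcee, Mmaa, Mthfs and Qdpr) and 5 lower (6.67%, against 4.38%), with a median of 0.25. This count too rested on single mice, being 0 without Con A + PBS mouse 1, Con A + hWJ-MSCs mouse 2 or Con A + hWJ-MSCs mouse 3, where 19, 11 and 22 genes had an unadjusted p below 0.05 with the same fold, and 23 without Con A + PBS mouse 2. It was 1 without Con A + PBS mouse 4, 2 without Con A + hWJ-MSCs mouse 1, 4 without Con A + PBS mouse 3 and 5 without control mouse 2. Over all genes, 5, 8 and 4 were higher in the fits that gave 0, and 846 without Con A + PBS mouse 2.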

How the data were processed

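Polyadenylated liver RNA of 12 mice was sequenced on a NovaSeq with 150-bp paired-end reads. The submitters' processing notes name Bowtie2 2.2.1, RSEM 1.2.18 and the mouse build mm10; the step that normalized the values between mice is not given in the sources used here. The deposited table holds 1 whole-number score per gene and mouse, which the authors had already normalized: 82.1% of ranks carry the same score in all 12 mice, and every gene reaches 64 in at least 2 mice. These scores are therefore not counts, sequencing depth is unknown, and no counting interval is given. No column of per-mouse values was left out.

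Log2(score + 1) was the scale of all fits, made in limma 3.58.1 (R 4.3.3) with group means for the 12 mice, lmFit and eBayes with a trend, with Benjamini-Hochberg adjustment over 11289 genes; low values were not filtered further. A gene was called where its adjusted p was under 0.05 and its fold over 1.5. The fold understates the change of low genes. Intervals are 95%. Pair ratios were compared by exact permutation (scipy 1.17.1). The members, the further pathway genes, the markers and the tests were chosen with earlier results of these data known. Values per mouse are given for the 2 called genes of each route with the largest change after Con A, for each gene called with cells and for each called higher after Con A; Tat, Gnmt and Aass were added after their values were seen. Of the further genes, those higher after Con A and the largest fall in each group are named, except some that are not reported here. Coordinates are those of the table (mm10), and 52 of the transcripts were found in GENCODE M21 (GRCm38). Alternatives tried were quantile normalization, median centring, adding 10 in place of 1, a filter on mean score (100 or more), no trend in eBayes, the 8 mice compared alone, the replicate number as a block, an unadjusted p, a fold of 2 and leaving out each mouse in turn. The limma code was tested on simulated data. Any 2 mice of a group differed in the scores of at least 97.0% of genes, so none was a repeated deposit.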

Additional observations from a re-analysis of the deposited data

Results flagged for a closer look

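For each of the 53 genes and 3 groups, the highest or lowest mouse was compared with the other 3 by the gap to its nearest neighbour as a share of the whole range (Dixon's test at its 95% critical value for 4 mice, on the log2 scale). Of 159 such groups 18 held a mouse that stood apart, and chance gives this in about 1 in 20 groups. In the control group, mouse 1 was high for Shmt1 (4633 against 3520 to 3624), Bckdhb (1856 against 1290 to 1316) and Mccc1 (1096 against 884 to 915). Control mouse 2 was low for Got2 (8856 against 10888) and Bhmt (72892 against 341028), and control mouse 3 was low for Uroc1 (6046 against 7140), Ahcy (25838 against 34419) and Cdo1 (23620 against 25819). In the Con A + PBS group, mouse 2 was low for Tat (12268 against 44970 to 58393) and Mat1a (148316 against 341028) and high for Cdo1 (72750 against 58152). Con A + PBS mouse 4 was low for Gls2 (742 against 1578 to 1716) and Cbs (2690 against 4370 to 4736).

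In the Con A + hWJ-MSCs group, mouse 2 was low for Sdsl (554 against 1022 to 1094) and high for Gls2 (3043 against 1548 to 1635) and Gnmt (7600 against 4100 to 4454). Mouse 3 of that group was high for Cdo1 (147850 against 72750), and mouse 4 was low for Bhmt (58393 against 341028). For Uroc1, Got2, Bhmt, Mat1a, Ahcy and Cdo1 the other 3 mice shared 1 score, so the gap equals the whole range at any size. The cause of these gaps was not tested.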

How the results depend on the processing

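After Con A, the counts of 43 lower and 3 higher genes stayed within 1.5 times under all alternatives. Median centring and quantile normalization changed no count of the 53 genes. As 82.1% of ranks already carried the same score in all mice, these 2 alternatives could change little. They do not test the authors' normalization. With cells against Con A + PBS, 18 of the 53 were higher and 1 lower, and the counts were 10 higher with only the 8 mice compared, 32 higher and 3 lower at an unadjusted p, and 5 higher at a fold of 2. With the replicate number as a block (replicate block) they were 28 higher and 2 lower. The labels do not tie the numbers between groups, so the numbers were not taken as pairs. Of 12 same-number correlations of deviations, 4 exceeded 0.1 (from -0.118 to 0.375). A mouse correlated best with its own number in 4 of 12 cases. Between the Con A groups this held for numbers 2 and 4 (0.375 and 0.244) but not for 1 and 3 (-0.0429 and -0.0866). Whether mice of the same number were matched is not known. Leaving out each mouse gave 0 to 31 higher and 0 to 3 lower, with 0 lower without Con A + PBS mouse 1 or 4 or Con A + hWJ-MSCs mouse 2 or 3 and 3 lower without Con A + PBS mouse 2. The number of all genes higher ran from 4 to 846 over the same fits. Against control, 31 genes were lower, and 18 at a fold of 2.

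Of the 75 further genes, 12 were higher after Con A and 6 of those with a mean score of at least 100. With cells, 10 were higher, against 5 without a trend, 5 with the 8 mice alone, 18 with the block, 21 at an unadjusted p, 2 at a fold of 2 and 0 to 23 when leaving out 1 mouse; 5 were lower, against 1 at a fold of 2 and 0 to 6 when leaving out 1 mouse (0 without Con A + PBS mouse 1 or 4 or Con A + hWJ-MSCs mouse 2 or 3, 2 without Con A + PBS mouse 3, 3 without Con A + hWJ-MSCs mouse 1 or 4). Against control, 22 were lower and 9 higher, against 12 lower at a fold of 2 and 4 higher at a mean score of at least 100.

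Leaving out 1 mouse moved the route median after Con A from -0.64 to between -1.01 (without Con A + PBS mouse 4) and -0.33 (without Con A + PBS mouse 2) for serine, glutamine and transamination, with -0.39 without control mouse 1, and from -1.96 to between -2.30 and -1.90 for glycine. The propionate median with cells moved from 0.41 to between 0.20 (without Con A + PBS mouse 4) and 0.54. Directions turned only for values near 0 that were not called: Tat after Con A (-0.16 to 0.59), Sdsl (-0.34 to 0.04) and Ahcy (-0.10 to 0.06) with cells, Glud1 (-0.05 to 0.16), Bhmt (-0.64 to 0.56) and Agxt2 (-0.17 to 0.08) against control, and the log2 ratio of Mccc1 to Mccc2 with cells (-0.24 to 0.02). Pair ratios got no test with 3 mice against 4. The causes of these shifts were not tested. Coarse steps at high scores limit Bhmt, Mat1a, Cdo1 and Glud1, and the upstream normalization limits all values.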

Other observations

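Of 14 amino acid transporter genes, 4 fell after Con A (28.6%, against 19.2% of all genes) and 3 rose (21.4%, against 19.5%), shares near those of all genes. Slc38a4, a sodium-coupled transporter of liver cells, showed the largest fall (log2 change -1.85 ± 0.22), from scores of 13327 to 17720 in control mice to 3936 to 6578 in Con A + PBS mice. Slc3a2 and Slc7a5, which form the heavy and light chain of a carrier of large neutral amino acids, rose by 1.12 ± 0.21 and 1.36 ± 0.21, and the glutamine carrier Slc1a5 rose by 1.16 ± 0.18. Slc7a5 exceeded 64 among control mice only in mouse 2 (84). It could thus be listed only through mice given Con A, and its rise after Con A is no independent result. With cells 4 of the 14 were lower (28.6%, against 4.38% of all genes). Slc3a2 and Slc7a5 were lower than in the Con A + PBS group by log2 changes of -0.71 ± 0.21 and -0.87 ± 0.21 (limma, adjusted p = 0.0461 and 0.027), calls made in 3 and 8 of the 12 fits without 1 mouse. For both genes all Con A + PBS mice lay above all mice of the other Con A group. The others were Slc38a2 (log2 change -0.95 ± 0.25) and the taurine carrier Slc6a6 (-0.65 ± 0.19), which did not pass the test after Con A and were lower with cells than in control mice by log2 changes of -0.79 and -0.81. Their calls were made in 6 and 5 of the 12 fits without 1 mouse.

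Bhmt2 and Dmgdh start 130 bases apart on opposite strands of chromosome 13, and their scores did not move in step. The log2 ratio of Dmgdh to Bhmt2 was 0.99 to 1.23 in control mice, -0.71 to 0.78 in Con A + PBS mice and -0.67 to -0.43 in Con A + hWJ-MSCs mice. The pair was chosen after its values were seen, so no test was made.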
